A study of Homo sapiens with 6 samples.

Results

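Amino acid transporters of the solute carrier (SLC) families were followed in UM-SCC1 cells, an established line of head and neck squamous cell carcinoma (HNSCC), after transfection of miR-204-5p mimics. The genes were chosen by name alone, as every gene of the deposited table in families SLC1A, SLC3A, SLC6A, SLC7A, SLC36A, SLC38A and SLC43A, which gave 37 of 14959 genes. Of these, 36 encode carriers of these families or their subunits, and some of them carry substrates other than amino acids, as given below. The remaining gene, SLC7A6OS, is named for lying opposite SLC7A6 and encodes no transporter, so it was counted apart. The annotation lists 59 protein-coding names in these families. The other 23 were not found by name in the deposited table and so could not be analysed.

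Both groups held UM-SCC1 cells only, transfected with synthetic miR-204-5p mimics or with control mimics, and RNA was sequenced 48 h later. There were 3 independent experiments per group, giving 6 libraries. A mimic is made to raise the microRNA above its own level in a cell, and a single line was used, which limits both groups as a model of the tumour. Levels are FPKM (fragments per kilobase of transcript, scaled to the mapped fragments of the library). Being per length, they can be compared between genes as far as the length used for each gene is right. Which length was used for a gene with several transcripts is not given.

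Amino acids do not cross the plasma membrane unaided, and a proliferating cell needs them for protein, nucleotide and glutathione synthesis. Some carriers are exchangers that import one amino acid by exporting another, others use the sodium gradient to accumulate their substrates, and others sit on the lysosome and return the products of protein breakdown to the cytosol. The exchangers SLC7A5 and SLC7A11 are light chains that reach the cell surface only when bound to the heavy chain SLC3A2. MicroRNAs bind mainly through their seed, bases 2 to 8, to complementary sites in the 3′UTR of a mRNA and lower its level or translation.

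The mature miR-204-5p (RefSeq, GRCh38.p14, chr9:70810031-70810052, minus strand) is 22 bases long, and its seed is in capitals in the first line that follows. The next lines show the sites in the 3′UTRs of 6 of the 15 carrier genes with a match, in GENCODE 29 on GRCh38 and on the strand of the mRNA. Their capitals mark the match: AAAGGGA, the complement of the seed, for a 7mer-m8, the same with an A after it, opposite base 1 of the microRNA, for an 8mer (AAAGGGAA), and the complement of bases 2 to 7 with that A for a 7mer-A1 (AAGGGAA). The genes are those with the lowest (SLC38A7) and the highest (SLC7A11) log2 fold change, on log2(FPKM + 1), among the carriers called, a highly expressed carrier that fell (SLC38A2), a facilitative carrier that fell (SLC43A2) and the 2 other genes with an 8mer (SLC36A1 and SLC43A1). All sites shown lie in the last exon of the transcript with the longest 3′UTR. The 6 genes were picked with the values known. Other carriers with a match that were called are not shown: SLC6A8 and SLC1A1, which fell, and SLC1A4 and SLC36A4, which rose.
hsa-miR-204-5p: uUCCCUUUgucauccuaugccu
SLC38A7 8mer, chr16:58665140-58665147, minus strand: gtatactcgagAAAGGGAAgatggttaata
SLC38A7 7mer-m8, chr16:58665122-58665128, minus strand: gatggttaataAAAGGGAtttgtgctgct
SLC7A11 7mer-m8, chr4:138168451-138168457, minus strand: atactgctaagAAAGGGAgcaactctgac
SLC38A2 7mer-A1, chr12:46360873-46360879, minus strand: agtctcgggttAAGGGAAgtgacaatttt
SLC43A2 7mer-m8, chr17:1570874-1570880, minus strand: catcatctgcaAAAGGGAggaaagaatgc
SLC43A2 7mer-A1, chr17:1574891-1574897, minus strand: tctgccacctgAAGGGAAtttgaggaccg
SLC36A1 8mer, chr5:151491005-151491012, plus strand: tctgctggagcAAAGGGAAaccgtgggctt
SLC43A1 8mer, chr11:57484542-57484549, minus strand: agaggaaataaAAAGGGAAgtgagaga

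The deposited table gives no counts, and depth was inferred from the smallest steps in FPKM, searched only within a preset range. It was 13.1 to 16.0 M fragments after miR-204-5p mimics and 13.9 to 16.4 M after control mimics. Spearman correlations across genes were 0.990 to 0.991 between libraries of a group and 0.973 to 0.976 between groups. All 10 squamous epithelial markers were measured, and their summed level was 948 to 1038 FPKM after miR-204-5p mimics and 1091 to 1118 FPKM after control mimics. They moved both ways: 6 were lower and 3 higher (limma adjusted p under 0.05), or 90% against 40.8% of all genes. On average TP63 was at 27.4 FPKM after miR-204-5p mimics against 55.9 after control mimics, and SFN at 350 against 292. Of 7 fibroblast markers, 4 were in the table, with sums of 9.81 to 11.6 FPKM after miR-204-5p mimics and 8.58 to 9.41 FPKM after control mimics, nearly all of it COL1A1. The leukocyte-defining PTPRC and CD3E were below 1 FPKM on average in both groups, while CD14 and CD68 brought the sum of the 4 leukocyte markers to 21.7 to 24.4 FPKM and 26.7 to 27.9 FPKM. The 3 endothelial markers summed to less than 1 FPKM in every library. The part of these marker differences in the transporter values was not tested, and fewer cells of a kind cannot be told apart from less RNA per cell.

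After miR-204-5p mimics, 7 carrier genes fell and 6 rose, with SLC38A7 and SLC6A8 lowest and SLC7A11 highest in log2 fold change on log2(FPKM + 1), while the most abundant carrier, SLC7A5, fell to 0.743 times its control mean. A gene was called when limma's adjusted p, taken over all 14959 genes of the table, was under 0.05. The 13 carriers called were 36.1% of the 36, against 40.8% of all genes, so the share called was near the background and is not a result about carriers. Genes lower after the mimics made up 16.8% of all genes and genes higher 23.9%, and among the carriers these were 7 and 6 of 36. The groups did not overlap for 16 carriers, against 53.6% of all genes. The median log2 fold change was 0.04 over the carriers and 0.03 over all genes. What follows is therefore an account of single carriers and of how their levels stand to each other. Counts by family rest on few genes and are not results about a family.

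The carriers covered a wide range of levels. The highest was SLC7A5, at 613 ± 20.0 FPKM (SD, n = 3) after control mimics, followed by SLC3A2 at 177 ± 10.0 and SLC38A2 at 160 ± 0.798. SLC1A5 (69.9 ± 10.98) and SLC1A3 (66.9 ± 3.33) came next and did not differ beyond their spread, and neither did SLC38A1 (24.5 ± 0.442) and SLC7A1 (24.3 ± 0.375). A mean of at least 1 FPKM in either group was reached by 22 carriers, and 14 were below 1 in both, of which 4 were listed at 0 in some library. The first 5 places in this order were the same in both groups. SLC7A11 was in place 18 of 36 after control mimics and in place 10 after miR-204-5p mimics.

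**Figure D1:**
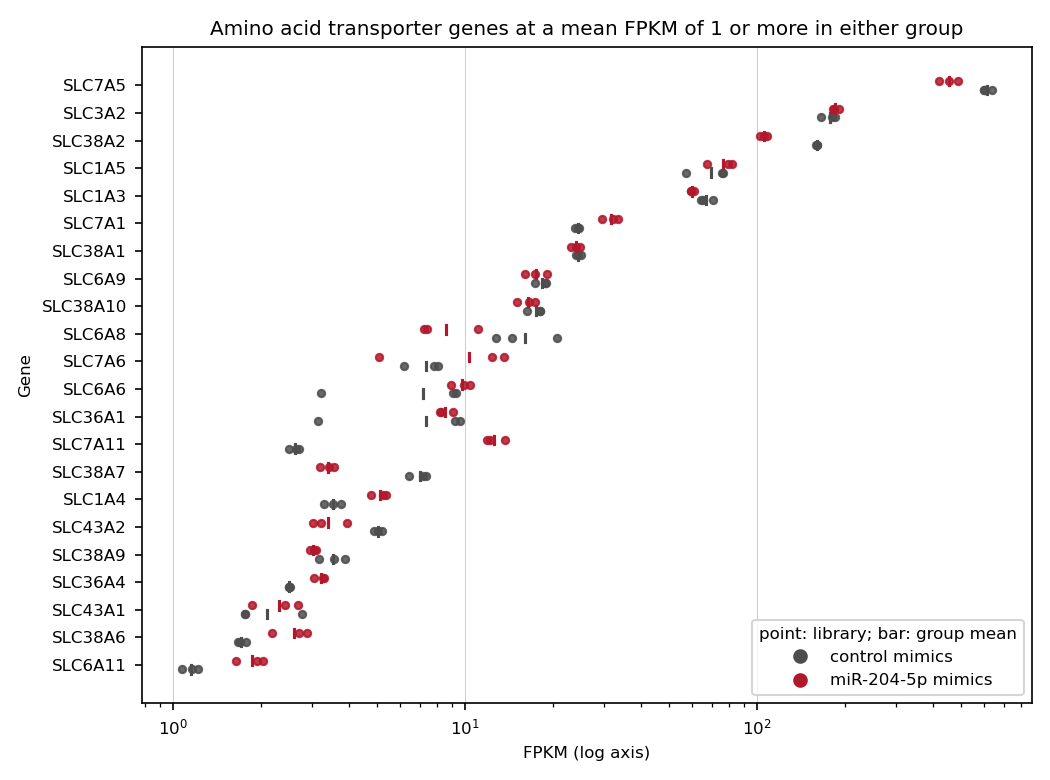
FPKM on a log axis of the 22 carrier genes with a mean of at least 1 FPKM in either group, with 1 point per library and a bar at each group mean, red for miR-204-5p mimics and grey for control mimics. SLC7A5 is highest in all 6 libraries, and the groups lie far apart for SLC7A11, with means of 2.62 FPKM after control mimics and 12.6 after miR-204-5p mimics.

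The heavy chains came first. SLC3A2, also called CD98 heavy chain, carries SLC7A5, SLC7A11 and other light chains to the plasma membrane. Its level was 183, 183 and 191 FPKM after miR-204-5p mimics and 186, 166 and 180 FPKM after control mimics. The groups overlapped, and the log2 fold change was 0.07 with a 95% interval of −0.05 to 0.19 (limma adjusted p = 0.334). The other heavy chain, SLC3A1, which carries the cystine carrier of kidney and gut, was at 0.131 FPKM or less in every library, and 1923 bases of its exons are shared with PREPL on the opposite strand.

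Among the 5 light chains measured, 1 fell, 1 rose and 3 did not pass the test, so 40% were called against 40.8% of all genes. SLC7A5 (LAT1) exchanges intracellular glutamine for leucine and other large neutral amino acids. It was at 421, 455 and 490.0 FPKM after miR-204-5p mimics and at 636, 601 and 601 FPKM after control mimics. All 3 libraries with miR-204-5p mimics were below all 3 controls, the log2 fold change was −0.43 (SE 0.0625), and the limma adjusted p was 0.00237. SLC7A5 has 2 annotated copies on chromosome 16, SLC7A5P1 and SLC7A5P2, which are not in the table, so reads they share with SLC7A5 would be counted with it or lost.

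SLC7A11 (xCT) exports glutamate and imports cystine, the source of cysteine for glutathione. Its level was 11.9, 13.8 and 12.2 FPKM after miR-204-5p mimics and 2.50, 2.70 and 2.65 FPKM after control mimics. The lowest library with miR-204-5p mimics was well above the highest control, and the mean was 4.81 times that of the control. The log2 fold change was 1.91 (SE 0.0699, limma adjusted p = 2.96e-05), the largest of any carrier, and stayed between 1.85 and 1.95 when any 1 library was left out.

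SLC7A6 (y+LAT2), which exchanges arginine for neutral amino acids with sodium, was at 5.09, 12.3 and 13.6 FPKM after miR-204-5p mimics and at 7.84, 8.08 and 6.20 FPKM after control mimics. The first of these libraries was below the controls and the others above, and the log2 fold change of 0.35 did not pass (limma adjusted p = 0.440, 95% interval −0.44 to 1.13). Without that library it was 0.75 (limma adjusted p = 0.00784). SLC7A6 shares 3371 of its 7588 exonic bases with SLC7A6OS on the opposite strand, which has 5229. Whether strand was used in counting is not given in the sources used here. Reads from the shared bases may therefore have been counted for either gene. SLC7A6OS itself was at 8.32, 8.75 and 9.06 FPKM after miR-204-5p mimics and 5.49, 6.11 and 5.38 FPKM after control mimics. Its log2 fold change was 0.55 (limma adjusted p = 0.00104). The listed transcript of SLC7A6OS is 428 bases long and annotated as a target of nonsense-mediated decay.

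The remaining light chains, SLC7A7 (y+LAT1), an exporter of arginine and lysine, and SLC7A8 (LAT2), a relative of SLC7A5, were below 0.4 FPKM in every library and were not called.

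Set against the heavy chain in the same library, the light chains moved in opposite directions. The ratio of SLC7A5 to SLC3A2 was 2.30, 2.49 and 2.57 after miR-204-5p mimics and 3.43, 3.62 and 3.33 after control mimics, with no overlap. The ratio of SLC7A11 to SLC3A2 was 0.0680 ± 0.00644 against 0.0148 ± 0.00139 (SD, n = 3 per group). SLC7A5 was thus 36.3 ± 3.67 times as abundant as SLC7A11 after miR-204-5p mimics and 234 ± 17.1 times after control mimics. Even so SLC7A11 was only 2.64% of the summed light chain level after miR-204-5p mimics, against 0.421% in the controls, and SLC7A5 was 95.2% and 98.4%. Such ratios of transcript levels show unequal change and not how many heterodimers formed, and 3 against 3 libraries cannot give an exact two-sided permutation p below 0.1.

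**Figure D2:**
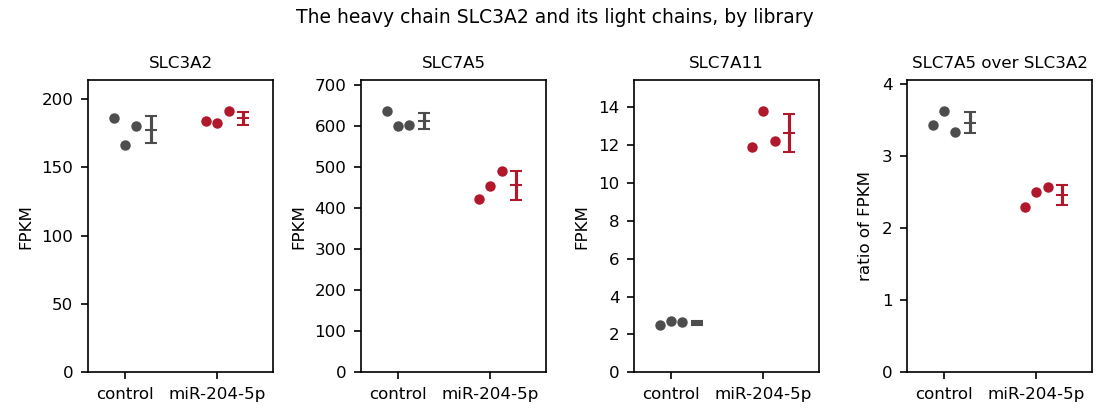
Level in FPKM of SLC3A2, SLC7A5 and SLC7A11, and the ratio of SLC7A5 to SLC3A2, on linear axes from 0, with 1 point per library and the mean ± SD of each group (n = 3) beside the points. SLC3A2 overlaps between the groups, SLC7A5 and its ratio to SLC3A2 are lower in all 3 libraries with miR-204-5p mimics, and SLC7A11 is higher in all 3.

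The cationic amino acid carriers bring in arginine and lysine. SLC7A1 (CAT1) was at 29.5, 32.0 and 33.3 FPKM after miR-204-5p mimics and 24.6, 24.5 and 23.9 FPKM after control mimics. The groups did not overlap and SLC7A1 rose, with a log2 fold change of 0.36 (SE 0.0518, limma adjusted p = 0.00216). SLC7A2 (CAT2) and SLC7A4 were below 0.3 FPKM in every library, were listed at 0 in a control library each, and were not called.

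In the SLC1 family, 2 of 4 carriers fell, 1 rose and 1 did not pass. That is 75% called against 40.8% of all genes, but 4 genes are too few to compare. SLC1A5 (ASCT2) exchanges glutamine for other neutral amino acids and was the most abundant of the 4. It was at 79.7, 82.3 and 67.3 FPKM after miR-204-5p mimics and 76.5, 75.9 and 57.2 FPKM after control mimics. The third library of each group was the lowest, the groups overlapped, and the log2 fold change was 0.13 with a 95% interval of −0.18 to 0.45 (limma adjusted p = 0.453).

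SLC1A4 (ASCT1), a carrier of alanine, serine and cysteine, was at 4.78, 5.35 and 5.24 FPKM after miR-204-5p mimics and 3.29, 3.75 and 3.54 FPKM after control mimics. It rose without overlap, by 0.44 on the log2 scale (SE 0.0693, limma adjusted p = 0.00336). Its listed transcript is 1217 bases long, and the longest annotated one is 5789.

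SLC1A3 (EAAT1) takes up glutamate and aspartate. Its level was 60.8, 59.2 and 59.5 FPKM after miR-204-5p mimics and 64.4, 70.6 and 65.5 FPKM after control mimics. It fell by 0.16 on the log2 scale (SE 0.0438, limma adjusted p = 0.0296), a call lost under the replicate block (limma adjusted p = 0.0793) and in 5 of 6 fits that left out 1 library (adjusted p up to 0.0840). SLC1A1 (EAAT3), a carrier of glutamate and cysteine, also fell, at 0.380, 0.188 and 0.219 FPKM against 0.576, 0.616 and 0.491 FPKM in the controls (−0.31 on the log2 scale, limma adjusted p = 0.0129). At such levels the pseudocount of 1 understates the difference: the mean of SLC1A1 was 0.468 times that of the control, and its log2 fold change was −0.90 with a pseudocount of 0.1 (limma adjusted p = 0.0186).

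In the SLC38 family, 2 of 8 carriers fell, 1 rose and 5 did not pass, so 37.5% were called against 40.8% of all genes. SLC38A2 (SNAT2) accumulates small neutral amino acids such as alanine and glutamine with sodium and is known to be induced when amino acids are scarce. It was at 106, 108 and 103 FPKM after miR-204-5p mimics and 161, 161 and 159 FPKM after control mimics. The spread within each group was small beside the gap, and the log2 fold change was −0.60 (SE 0.0335, limma adjusted p = 8.76e-05).

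SLC38A1 (SNAT1), the neighbouring gene and a close relative with overlapping substrates, was at 24.1, 24.8 and 23.0 FPKM against 24.1, 24.95 and 24.4 FPKM. The groups overlapped, and the 95% interval of the log2 fold change was −0.13 to 0.07 (limma adjusted p = 0.621). SLC38A2 was 4.41 ± 0.0478 times as abundant as SLC38A1 after miR-204-5p mimics and 6.55 ± 0.118 times after control mimics (SD, n = 3 per group). Both genes lie on the minus strand of chromosome 12, SLC38A1 at chr12:46183063-46269012 and SLC38A2 at chr12:46358189-46372867. SLC38A4, at chr12:46764761-46825997, stayed below 0.6 FPKM and was not called.

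SLC38A7 (SNAT7) exports glutamine and asparagine from the lysosome. Its level was 3.56, 3.20 and 3.41 FPKM after miR-204-5p mimics and 7.37, 7.20 and 6.45 FPKM after control mimics. It fell to 0.484 times the control mean, with no overlap and a log2 fold change of −0.87 (SE 0.0697, limma adjusted p = 0.000258). On log2(FPKM + 1) this was the lowest estimate among the carriers called, but by ratio of means SLC1A1 (0.468) was lower, and without the first library with miR-204-5p mimics SLC6A8 was at −1.003 and SLC38A7 at −0.894.

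SLC38A9, the lysosomal arginine sensor of mTORC1, was at 2.94, 3.10 and 3.04 FPKM against 3.55, 3.16 and 3.90 FPKM in the controls. The groups did not overlap, but the log2 fold change of −0.17 did not pass (limma adjusted p = 0.125), and it was called after quantile normalization (adjusted p = 0.0371). Its listed transcript is annotated as a target of nonsense-mediated decay. SLC38A6 rose, from 1.78, 1.70 and 1.67 FPKM in the controls to 2.19, 2.87 and 2.70 FPKM (0.40 on the log2 scale, limma adjusted p = 0.0106). It shares 245 of its 5147 exonic bases with TRMT5 on the opposite strand. Its listed transcript is 1730 bases long, and the longest annotated one is 2787. SLC38A10 was at 15.1 to 17.4 FPKM after miR-204-5p mimics and 16.4 to 18.1 FPKM after control mimics and did not pass, nor did SLC38A5 (SNAT5), which stayed below 0.2 FPKM.

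The SLC6 family couples transport to sodium and chloride, and 1 of its 9 members fell, 1 rose and 7 did not pass. The share called was 22.2%, against 40.8% of all genes. SLC6A8 carries creatine, an amino acid derivative. It was at 11.1, 7.39 and 7.25 FPKM after miR-204-5p mimics and 20.7, 14.5 and 12.8 FPKM after control mimics, so each group had 1 high library and the groups did not overlap. The log2 fold change was −0.82 (SE 0.213, limma adjusted p = 0.0218). The call was lost without the second (adjusted p = 0.0743) or the third library with miR-204-5p mimics (adjusted p = 0.0692). Under the replicate block it held (limma adjusted p = 0.002955), but whether the replicate numbers pair the experiments is not settled. An annotated copy of SLC6A8 on chromosome 16, SLC6A10P, is not in the table, and neither is SLC6A6P1 on chromosome 21, a copy of SLC6A6, so the limit on shared reads given for SLC7A5 holds for both.

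SLC6A11, a carrier of the inhibitory transmitter GABA, rose from 1.08, 1.22 and 1.16 FPKM to 1.94, 1.64 and 2.03 FPKM (0.41 on the log2 scale, limma adjusted p = 0.00484). The glycine carrier SLC6A9 (GlyT1) was at 16.0, 17.4 and 19.1 FPKM against 18.9, 18.8 and 17.3 FPKM in the controls, and the groups overlapped. The taurine carrier SLC6A6 was at 8.99, 9.90 and 10.4 FPKM against 3.22, 9.31 and 9.08 FPKM. Its log2 fold change of 0.50 did not pass (limma adjusted p = 0.285) and was 0.08 without the first control library, and its listed transcript is annotated as a target of nonsense-mediated decay. The noradrenaline carrier SLC6A2, the serotonin carrier SLC6A4, the proline carrier SLC6A7, SLC6A14 and SLC6A16 were below 0.3 FPKM throughout and were not called.

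The proton-coupled and facilitative carriers closed the list. SLC36A1 (PAT1), a lysosomal exporter of small neutral amino acids, was at 8.21, 8.29 and 9.13 FPKM after miR-204-5p mimics and 9.26, 3.13 and 9.60 FPKM after control mimics. The second control library stood apart from the others, and the log2 fold change was 0.32 (limma adjusted p = 0.517) with it and −0.13 without it. Its listed transcript is 587 bases long, while the longest of the gene is 5781. SLC36A4 (PAT4), a carrier of proline and tryptophan, rose from 2.49, 2.49 and 2.53 FPKM to 3.28, 3.29 and 3.05 FPKM (0.26 on the log2 scale, limma adjusted p = 0.0110).

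SLC43A2 (LAT4), a uniporter of branched-chain amino acids and phenylalanine, fell. It was at 3.21, 3.03 and 3.94 FPKM after miR-204-5p mimics and 5.04, 5.21 and 4.89 FPKM after control mimics (−0.47 on the log2 scale, SE 0.0884, limma adjusted p = 0.00679). Its relative SLC43A1 (LAT3) was at 1.86, 2.41 and 2.68 FPKM against 1.77, 2.77 and 1.77 FPKM, with overlap and limma adjusted p = 0.628. SLC43A3, a carrier of purine bases, stayed below 0.4 FPKM and was not called.

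**Figure D3:**
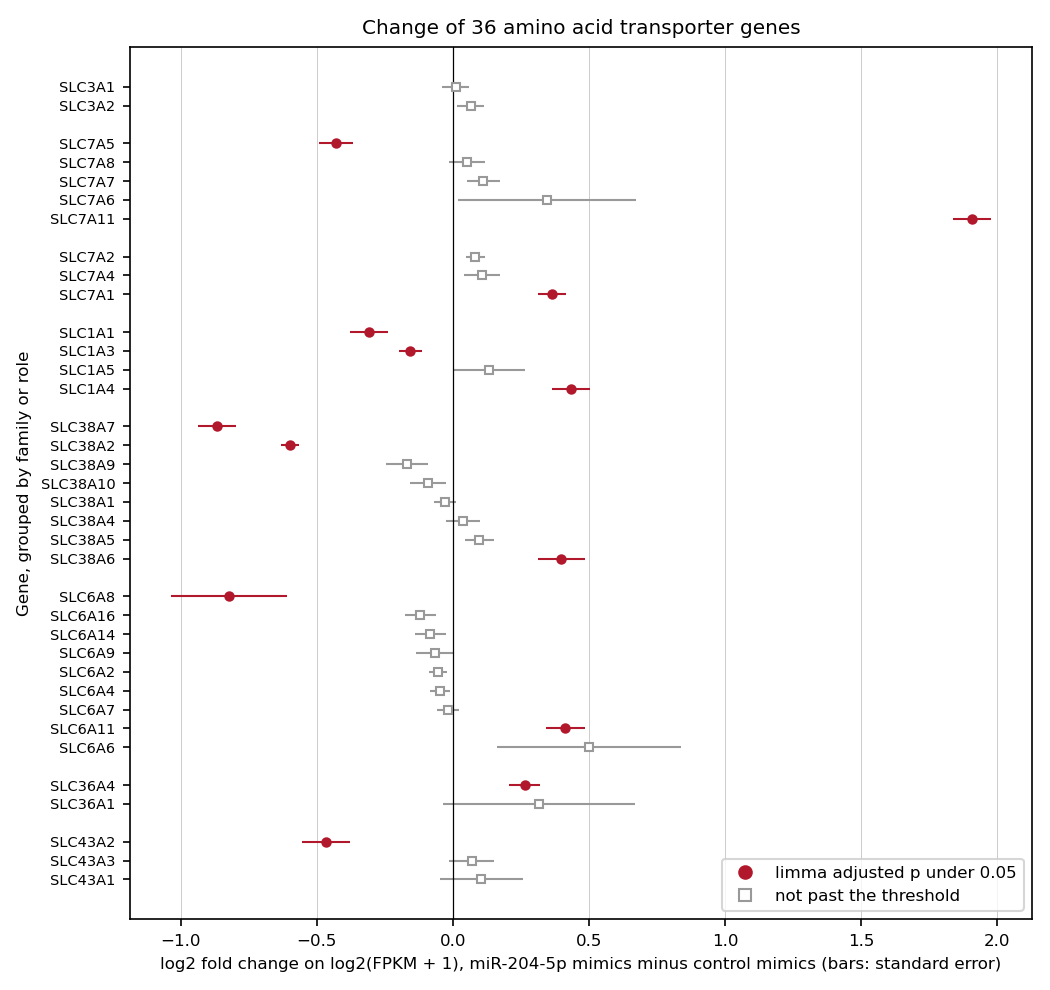
Log2 fold change on log2(FPKM + 1), miR-204-5p mimics minus control mimics, of the 36 carrier genes grouped by family or role, with standard errors as bars. Filled red circles passed limma's test at an adjusted p of 0.05 and open grey squares did not, and SLC7A11 lies at 1.91 while SLC38A7 (−0.87) and SLC6A8 (−0.82) lie lowest.

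The carriers that fell included the 1st and the 3rd most abundant, so the summed level of all 36 was lower after the mimics although about as many carriers rose as fell. The sum was 1008, 1055 and 1084 FPKM after miR-204-5p mimics and 1279, 1228 and 1216 FPKM after control mimics, without overlap. SLC7A5 made up 43.4% ± 1.72 of that sum after miR-204-5p mimics and 49.4% ± 0.393 after control mimics (SD, n = 3). Without SLC7A5, the sum was 587 to 600.3 FPKM after miR-204-5p mimics and 614 to 643 FPKM after control mimics.

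Several carriers belong to the genes that the transcription factor ATF4 is known to induce when amino acids run short, and these did not move one way. Of them, SLC7A11, SLC7A1 and SLC1A4 rose and SLC7A5 and SLC38A2 fell, while SLC3A2 and SLC1A5 did not pass. This grouping rests on general knowledge, and was made with the values known. Of 21 further genes of the amino acid response, 8 rose and 6 fell, so 66.7% were called against 40.8% of all genes. This list too was chosen with earlier results of these data known. In the fit on genes at a mean of at least 1 FPKM, 5761 of 11504 genes were called, and 15 of 20 in this list. Those with the largest changes were asparagine synthetase, ASNS, which rose from 10.2 ± 0.828 to 26.1 ± 1.66 FPKM (mean ± SD over 3 libraries) with a difference of 1.27 on the log2 scale (limma adjusted p = 9.12e-05), the secreted glycoprotein STC2, which rose by 1.01 on the log2 scale (adjusted p = 5.77e-05), and the mTORC1 inhibitor DDIT4, which fell by 0.97 (adjusted p = 0.000236).

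The machinery that senses amino acids for mTORC1 moved in both directions as well. Of 32 such genes, 8 fell and 5 rose, and the 13 called were close to the share of all genes. NPRL2, a subunit of the inhibitory GATOR1 complex, rose by 0.75 on the log2 scale (limma adjusted p = 0.00120). LAMTOR1, which anchors the Ragulator complex on the lysosome, rose by 0.58 (adjusted p = 0.000159), and the leucine sensor SESN2 fell by 0.56 (adjusted p = 0.000175). Among 16 amino acid carriers of other families, 6 rose and 3 fell, or 56.3% against 40.8% of all genes. In the fit on genes at a mean of at least 1 FPKM, 5761 of 11504 genes were called, and 8 of 14 of these carriers. The carriers called included the mitochondrial ornithine carrier SLC25A15 (0.73 on the log2 scale, limma adjusted p = 0.00345). They also included the mitochondrial branched-chain amino acid carrier SLC25A44 (−0.41, adjusted p = 0.00223) and the lysosomal histidine and peptide carrier SLC15A4 (0.40, adjusted p = 0.00481).

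Matches to the miR-204-5p seed were then counted, taking the longest 3′UTR per gene. Only the strand of the mRNA was searched, and each gene was placed in its best class. A match was found for 15 of 36 carriers (41.7%) and for 27.1% of the 14664 genes with a 3′UTR. The carriers' 3′UTRs were also longer, with a median of 1950 bases against 1252, and the part of length in the higher share was not tested. An 8mer was held by 3 carriers, a 7mer-m8 as the best match by 7 and a 7mer-A1 by 5. A match is a description of letters, not evidence that the site is bound.

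Of the 15 carriers with a match, 5 fell, 3 rose and 7 did not pass. Of the 21 without, 2 fell, 3 rose and 16 did not pass. In all genes, 27.0% of those with a match fell and 16.4% rose, against 13.4% and 27.2% of those without. The carriers with a match that fell were SLC38A7, SLC38A2, SLC43A2, SLC6A8 and SLC1A1, and those without were SLC7A5 and SLC1A3. Among the 8mers shown at the start, that of SLC38A7 lies in a gene that fell, with a 7mer-m8 downstream in the same 3′UTR, while SLC43A1 and SLC36A1 did not pass.

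The carriers with a match that rose were SLC7A11, SLC1A4 and SLC36A4. The SLC7A11 site is 1 heptamer in a 3′UTR of 7859 bases, in the gene with the highest log2 fold change of the list. The sites of SLC1A4 and SLC36A1, and that of SLC6A2, lie outside the listed transcript of the gene. Whether the FPKM rests on that transcript alone is not given, so the measured transcripts need not carry these sites.

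**Figure D4:**
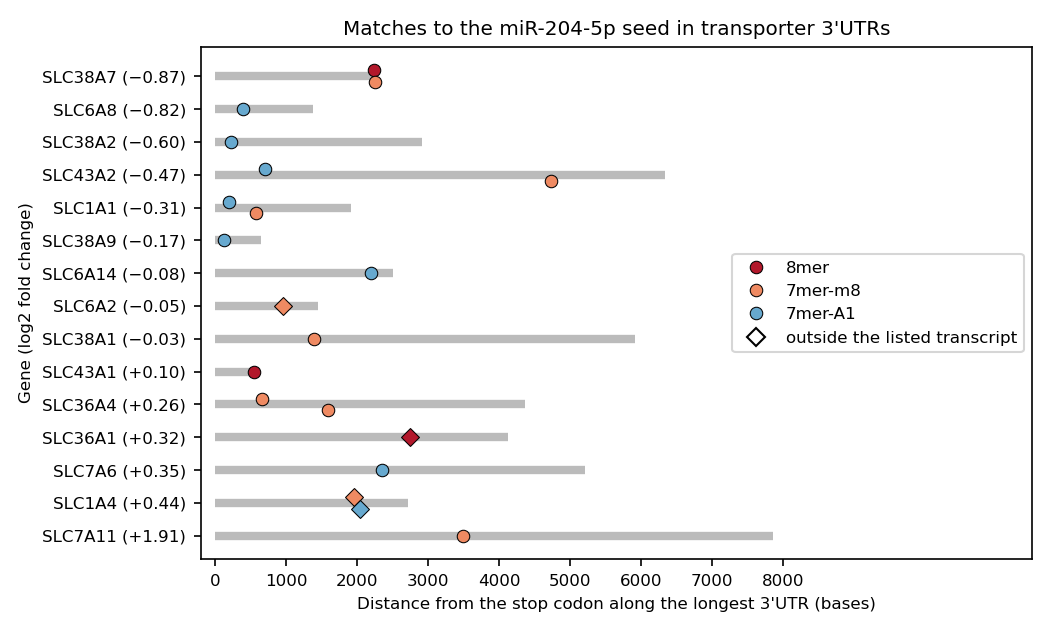
Position of each seed match, in bases from the stop codon, along the longest 3′UTR (grey bar) of the 15 carriers with a match, ordered by log2 fold change, which stands in brackets beside each gene. Colours give the class of match and diamonds mark sites outside the listed transcript, and genes with a match run from −0.87 for SLC38A7 to 1.91 for SLC7A11.

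Most calls held when single libraries were left out. Of the carriers, 11 to 13 were called in each of the 6 fits with 1 library fewer, and 12 under the replicate block, against 13 from all libraries without it. Of all 14959 genes, 4971 to 5371 were called in those 6 fits and 5096 under the replicate block, against 6098. These counts of carriers are therefore not a result about carriers. The calls of SLC1A3 and SLC6A8 were the ones lost when a library was left out, as given above. Among carriers that did not pass, SLC7A6 was called without the first library with miR-204-5p mimics, and SLC6A16, at 0.0992 to 0.269 FPKM, without the third (−0.17 on the log2 scale, adjusted p = 0.0422).

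**Figure D5:**
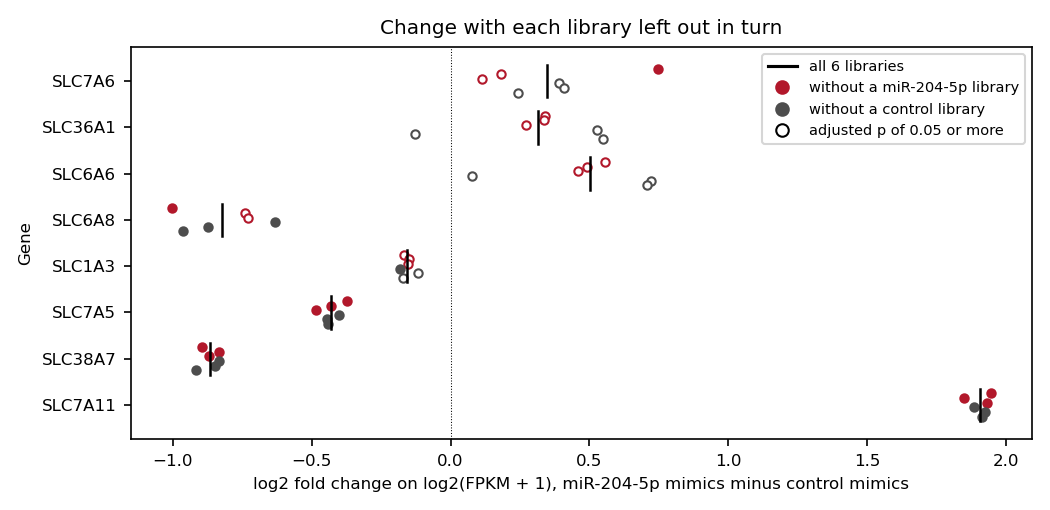
Log2 fold change on log2(FPKM + 1) of 8 carriers from all 6 libraries (black line) and with each library left out in turn (points, red without a miR-204-5p library, grey without a control library, open where limma's adjusted p was 0.05 or more). SLC7A11 moves between 1.85 and 1.95, while SLC36A1 spans −0.13 to 0.55 and SLC7A6 0.11 to 0.75.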

How the data were processed

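RNA-seq was measured in 6 libraries of UM-SCC1 cells, 3 per transfected mimic, grouped by their GEO labels. The deposited values are FPKM per gene and library, computed by the authors. The submitters' processing notes name HISAT2, StringTie and hg38, without versions. The deposited table also holds the authors' own comparison (log2 ratios, p-values and false discovery rates from edgeR), which was not used. It gives 1 listed transcript per gene, and 14951 of 14959 were found in GENCODE 29, 14847 with the same coordinates.

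Because the values are not counts, a limma fit (version 3.58.1, R 4.3.3) with trended eBayes was run on log2(FPKM + 1) over all 14959 genes, two-sided and unfiltered, with Benjamini-Hochberg adjustment at 0.05. Fold changes are on that scale, which understates changes of low genes. The procedure was also run on simulated data with independent noise and far fewer changed genes than were called here. That run does not measure the error rate of these calls. Tables were handled in Python 3.11.15 with pandas 2.3.3 and numpy 2.4.6. Depth was inferred from FPKM times transcript length, where whole multiples of 1 fragment, within a tolerance of 0.01, made up 24.0% to 30.3% of low values, too few to recover counts. The step was searched only within a preset range, so depths outside that range were not examined.

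The miR-204-5p seed was matched to the longest 3′UTR among a gene's protein-coding transcripts. Every gene found by the name rule could be named, and of each companion list the 3 genes called with the largest absolute fold change, a mean of at least 1 FPKM and no overlap between groups. The members and lists were chosen with earlier results of these data known. Alternatives were another pseudocount, a filter at 1 FPKM, equal medians, quantile normalization, a replicate block, leaving out each library, and joined 3′UTRs.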

Additional observations from a re-analysis of the deposited data

How the results depend on the processing

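Under the 11 alternatives, 360 of 382 fold changes of carriers stayed in direction and on their side of the limma threshold, 8 lost their call, 3 gained one and 11 changed sign, none of them called. After quantile normalization SLC38A4 was at −0.0171 and SLC3A1 at −0.0047. With 1 library left out, the log2 fold change ran from −0.0015 to 0.22 for SLC1A5, −0.13 to 0.55 for SLC36A1, −0.0184 to 0.0838 for SLC38A4, −0.0174 to 0.14 for SLC43A3, −0.0132 to 0.0936 for SLC7A8, −0.0298 to 0.0437 for SLC3A1 and −0.0381 to 0.0010 for SLC6A7. Carriers below 1 FPKM have no value under the filter at 1 FPKM. Same-numbered libraries did not deviate together across genes (correlations −0.04, −0.02 and −0.11). Such correlations cannot settle whether the numbers pair the experiments. With the replicate block, 12 carriers and 5096 genes were called, against 13 and 6098. Genes that fell were 41.3% of all genes called, 48.7% with equal medians and 49.9% after quantile normalization, while carriers that fell were 7, 7 and 8. Counts were not at hand, so the precision of the carriers below 1 FPKM is known only from the spread between 3 libraries.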
